A study of Arabidopsis thaliana with 64 samples.

Results

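The chloroplast genome of Arabidopsis is represented in these RNA-Seq counts by 133 loci whose identifiers begin with ATCG. The 109 loci with a total of at least 50 counts over all 64 libraries are described here, out of 32833 loci in the tables. The least counted locus inside this limit had 61 counts and the most counted one outside it had 48. The 24 loci below it held 0.00397% of all plastid counts.

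The seedlings were Col-0 plants carrying 1 of 4 transcription factors (TFs) fused to the glucocorticoid receptor (GR) and driven by the constitutive 35S promoter, which is active in most cell types. The GR–TFs were GR-CHA19 (written 35S:CHA19 in the series description), GR-ENAP1, GR-LBD16 and GR-WRI3, each in 4 independent T3 insertion lines, and every library carries 1 of them because no line without a GR–TF was included. After 5 days in the dark, seedlings were moved in the dark to mock plates or to plates with 10 µM dexamethasone (Dex), a steroid that lets a GR fusion enter the nucleus, and were collected 24 h later. The pooled whole seedlings of 1 plate made 1 library, with 2 replicate libraries for each line and treatment, so that each GR–TF had 8 mock and 8 Dex libraries.

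Plastids keep a small circular genome that encodes part of the photosynthetic complexes, part of their own ribosome, an RNA polymerase and a subunit of the Clp protease. The nuclear genome supplies the remaining subunits, the sigma factors that direct the plastid-encoded polymerase, and the phage-type polymerases. Plastid genes are often transcribed as long multi-gene units that are then cut and trimmed. Plastid messages mostly lack the stable poly-A tail of nuclear messages, and short A-rich tails in plastids mark RNA for decay. Because mRNA was captured here with oligo-dT, the counts measure the plastid RNA that this capture retained and not the whole plastid RNA pool.

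Library totals ranged from 2059928 to 7968970 counts with a median of 5292626. Each fused gene was higher in all 16 libraries of its own lines than in any library of the other lines, the closest being ENAP1 with 126.6 to 563.7 CPM (counts scaled by the library total) against 25.4 to 110.2 CPM. PORA, a protochlorophyllide reductase gene that is high in dark-grown tissue, ranged from 26.9 to 1932 CPM. The transcripts of 4 genes known from green tissue were present in the dark-grown seedlings as well, with medians of 5208 CPM for LHCB1.3, 273 CPM for LHCB1.1, 283 CPM for LHCB2.1 and 2144 CPM for RBCS1A. Mitochondrial loci held 0.111% to 0.361% of counts. A group of 3 libraries stood apart with LHCB1.1, a light-harvesting protein gene, below 50 CPM. These were GR-LBD16 line 3 mock replicate 1 at 2.73 CPM and GR-ENAP1 line 1 mock replicate 1 at 6.34 CPM. The other was GR-CHA19 line 7 Dex replicate 1 at 39.5 CPM. The correlations among plastid loci below are given with and without these 3 libraries. Fold changes with Dex of loci named for these GR–TFs are given with and without the low library of that GR–TF. The difference between GR–TFs in mock is given with and without the low mock libraries. The correlations with PORA and LHCB1.1 and the Dex fit over all lines were not repeated without these 3 libraries.

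The identifiers of only a few members are paired with a gene in the annotation used here, so the others are called by locus. ATCG00670 is clpP, the plastid-encoded proteolytic subunit of the Clp protease, ATCG00530 is cemA, an envelope membrane protein, and ATCG00660 and ATCG01310 are the ribosomal protein genes rpl20 and rpl2. ATCG00430 is annotated as a photosystem II reaction center protein G. Levels are compared between genes only for 4 genes with a known exon length. Per kilobase of exon, the median level was 868 CPM for clpP, 82.3 for rpl20, 29.9 for cemA and 0.464 for rpl2.

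The gene with the lowest level of these 4 is also the 1 that has a second copy. In the RefSeq TAIR10.1 plastid genome of 154478 bases, rpl2 lies in both arms of an inverted repeat of 26264 bases (84171 to 110434 and 128215 to 154478), and its coding exons differ at 0 positions between the copies. The start of the coding sequence is shown for both copies to make this visible, with the start codon in capitals, 5′ to 3′, at 85784 to 85843 on the minus strand and at 152806 to 152865 on the plus strand:
rpl2, minus strand copy: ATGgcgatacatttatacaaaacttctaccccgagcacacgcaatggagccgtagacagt
rpl2, plus strand copy: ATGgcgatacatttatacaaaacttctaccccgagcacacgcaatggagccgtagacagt

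No window of 100 bases, the length of the reads, in the exons of rpl2 occurred only once in the reference genome, while every such window of clpP, rpl20 and cemA did. Of 83 protein-coding plastid genes long enough to hold a window, 63 had only unique windows and 10 had none. How the deposited counts treated reads with more than 1 match is not given in the sources used here, so the levels of repeat genes are uncertain, and the part of this in the low rpl2 level was not tested.

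Since capture used oligo-dT, the longest run of A in the coding sequence of each gene is shown in capitals, with up to 40 bases around it, 5′ to 3′ on the coding strand:
clpP, minus strand, 71843 to 71882: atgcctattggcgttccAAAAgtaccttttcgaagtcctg
rpl20, minus strand, 68512 to 68538: acaatttcgaatgacatAAAAAAAtaa
cemA, plus strand, 60741 to 60780: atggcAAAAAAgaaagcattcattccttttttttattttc
rpl2, minus strand, 84417 to 84456: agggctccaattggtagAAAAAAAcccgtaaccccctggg

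The longest run had 4 bases in clpP, 6 in cemA and 7 in rpl20 and rpl2. Across these 4 genes the level per kilobase did not follow the length of the run, since clpP had both the shortest run and the highest level. The untranslated parts of the messages were not examined.

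The members together took 0.782% to 2.42% of the counts of a library, with a median of 1.29%, which is 22648 to 148804 plastid counts per library. Between 102 and 109 of the members had at least 1 count in a library. The counts were concentrated in few loci, with 48.9% of plastid counts in the 4 loci with the highest median CPM and 73.2% in the 10 highest. A median of at least 100 CPM was reached by 19 members, of at least 10 CPM by 68 and of at least 1 CPM by 93, and 16 had a median under 1 CPM.

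ATCG00480 had the highest median, 1962 CPM, with 413 CPM in the lowest and 3063 CPM in the highest of the 64 libraries. ATCG01020 had a median of 1866 CPM (323 to 2772) and ATCG01130 a median of 1712 CPM (1114 to 4918). ATCG00470 had a median of 924 CPM (147 to 1482). The ranges of the first 3 loci overlap. These levels are counts per locus and not per base, so they give shares of the counted plastid RNA and not an order of transcript abundance.

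Next came ATCG00790 with a median of 821 CPM (444 to 2374), clpP with 513 CPM (280 to 1065) and ATCG00780 with 489 CPM (229 to 1562). The last of the 10 highest were ATCG00800 with 424 CPM (162 to 1506), ATCG00740 with 310 CPM (133 to 878) and ATCG00270 with 299 CPM (22.5 to 512). The loci differed in how much they varied over the libraries. The coefficient of variation was 21.6% for ATCG01020, 23.6% for ATCG00480 and 24.4% for ATCG00470, against 52.3% for ATCG00780 and 57.5% for ATCG00800. The low end of ATCG00480, ATCG01020, ATCG00470 and ATCG00270 was in each case GR-LBD16 line 3 mock replicate 1.

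**Figure D1:**
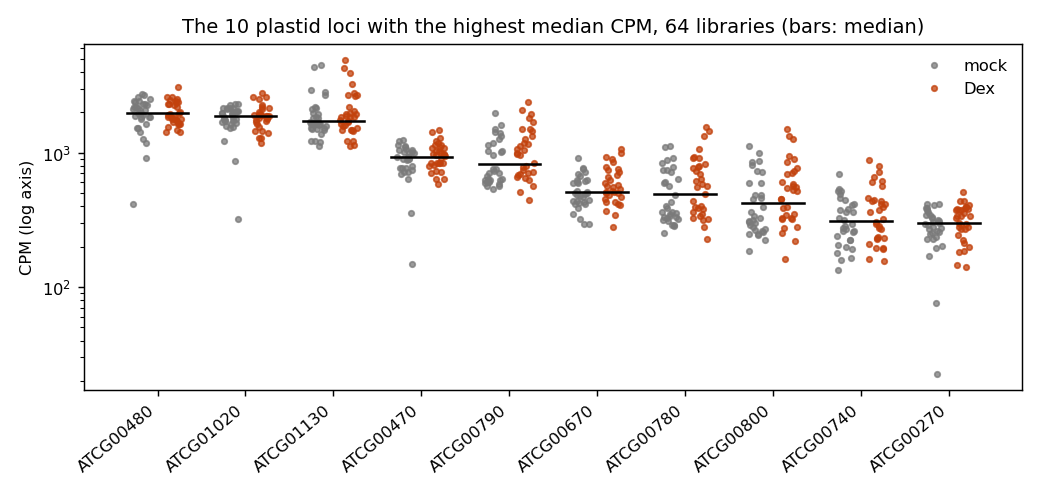
CPM (log axis) of the 10 plastid loci with the highest median CPM in each of the 64 libraries, mock in grey and Dex in orange, with the median as a bar. ATCG00480 and ATCG01020 lie close to their medians of 1962 and 1866 CPM apart from a few low libraries, while ATCG00780 and ATCG00800 spread over a wider range.

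In the library with the lowest LHCB1.1, GR-LBD16 line 3 mock replicate 1, 60 of the 68 members with a median of at least 10 CPM were lower than in the other replicate of that line and treatment, by a median of 1.15 on the log2 scale of CPM + 0.5. ATCG00270 had 22.5 CPM there against 327 CPM in the other replicate. The lower values were not shared by all loci, since ATCG01130 had 2182 CPM against 1973 CPM and ATCG00170 had 127 CPM against 65.8 CPM.

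GR-CHA19 line 7 Dex replicate 1 went the other way, with 60 of the 68 members higher than in the other replicate and a median difference of 1.46. ATCG00170 had 311 CPM there against 20.1 CPM, the highest value of this locus in any library. In GR-ENAP1 line 1 mock replicate 1, 35 members were higher and 33 lower. ATCG01130 had 4459 CPM there against 1700 CPM, whereas ATCG01180 had 1.19 CPM against 76.8 CPM. The 3 libraries thus differed from their partners in different ways. Over the 32 replicate pairs the median absolute difference of a pair ranged from 0.175 to 1.47 log2 units, and these 3 pairs and GR-WRI3 line 8 Dex (1.22) were the 4 largest.

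Loci with neighbouring identifiers varied together. Among the 68 members with a median of at least 10 CPM, the correlation of log2 (CPM + 0.5) over the 64 libraries had a median of 0.56 over 2278 pairs and of 0.82 over the 67 pairs next to each other in identifier order. The same held for the deviations of replicates from their line and treatment mean, with medians of 0.55 and 0.84. Without the 3 libraries that stood apart, the medians over the libraries were 0.57 and 0.78. All libraries enter these correlations, which share the library totals and are a description. For the 4 genes with a known position, the order of the identifiers follows the order along the genome, and reads from overlapping or co-transcribed genes cannot be told apart without strand.

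The plastid loci were set against PORA and LHCB1.1. In all, 20 relations were computed, the 10 highest loci against each marker on the log2 scale, with permutation p-values from 100000 permutations within GR–TF, two-sided and adjusted over the 20. The libraries of 1 line share their seed stock and are not fully independent, so that these p-values may be too small.

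ATCG00790, ATCG00780 and ATCG00800 had Pearson's r of 0.86, 0.87 and 0.87 with PORA and Spearman's rho of 0.86, 0.86 and 0.87 over the 64 libraries, each with an adjusted permutation p of 2.5e-05, or 3.3e-05 for rho, the smallest these permutations can give. Without the 2 libraries farthest from the median of PORA, r was 0.87 for each of the 3. Within the 4 GR–TFs, r was 0.82 to 0.91 for ATCG00790, 0.79 to 0.92 for ATCG00780 and 0.69 to 0.90 for ATCG00800. The relation of these 3 loci with LHCB1.1 was weak, with r of 0.08, −0.02 and 0.01 and adjusted permutation p of 0.76, 0.96 and 0.96. For clpP the correlation with PORA was 0.70 (rho 0.74, adjusted permutation p of 2.5e-05 for r and 3.3e-05 for rho), 0.71 without the 2 farthest libraries and 0.63 to 0.86 within the GR–TFs. ATCG00740 had r of 0.71 with PORA (rho 0.73) and ATCG01130 had 0.65 (rho 0.64), with the same adjusted permutation p. Over the 64 libraries ATCG00470 was related to both markers, with r of 0.34 and rho of 0.49 with PORA (adjusted permutation p of 0.0021 and 0.0017). This relation with PORA was not shared by all GR–TFs, since r was −0.19 (GR-ENAP1), 0.24 (GR-CHA19), 0.73 (GR-LBD16) and 0.89 (GR-WRI3).

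ATCG01020, ATCG00470 and ATCG00270 had r of 0.76, 0.77 and 0.77 with LHCB1.1 and rho of 0.49, 0.57 and 0.41, with adjusted permutation p of 4.4e-05, 6e-05 and 2.5e-05 for r and 0.00044, 0.00025 and 0.00023 for rho. These relations rest largely on the lowest libraries. Without the 2 libraries farthest from the median of LHCB1.1, r was 0.46, 0.48 and 0.47, and within GR-WRI3, which has no library with low LHCB1.1, r was 0.07, 0.39 and 0.22. ATCG00480 had r of 0.63 with LHCB1.1, which was 0.23 without those 2 libraries, and rho of 0.26 (adjusted permutation p of 0.062).

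**Figure D2:**
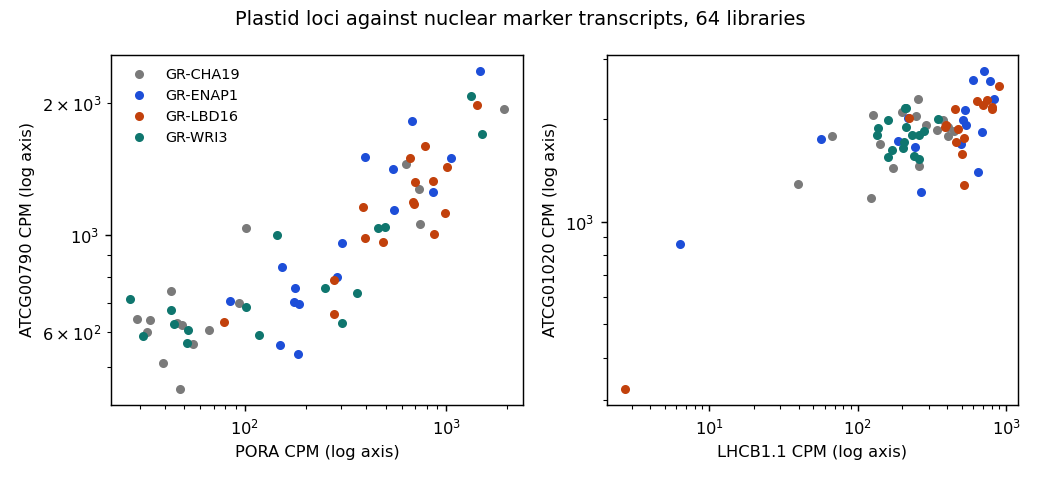
CPM of ATCG00790 against PORA (left) and of ATCG01020 against LHCB1.1 (right) in the 64 libraries, all axes logarithmic, coloured by GR–TF. ATCG00790 increases with PORA in all 4 GR–TFs (r of 0.86 overall), while the relation on the right is drawn out by the libraries with LHCB1.1 under 10 CPM.

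The main question of the design was whether release of a GR–TF by Dex changed the levels of transcripts. With edgeR's quasi-likelihood test and Benjamini-Hochberg adjustment over all genes, 0 of the 93 or 94 members tested in each GR–TF passed an adjusted p of 0.05, and the background was as low, 0.0273% of 18311 genes in GR-WRI3, 0% of 18706 in GR-LBD16, 0% of 18506 in GR-ENAP1 and 0% of 18272 in GR-CHA19. The 15 or 16 members left out had too few counts, and 12 passed the filter on low counts in no comparison. In these pooled seedlings, fewer cells of a type and less RNA per cell cannot be told apart. At an unadjusted p under 0.05 were 51 of 93 members in GR-WRI3, or 54.8%, against 15.5% of all genes. The others had 5 such members in GR-LBD16 (5.32%, against 6.31% of all genes), 2 in GR-ENAP1 (2.13%, against 1.81%) and 12 in GR-CHA19 (12.9%, against 14.0%).

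The GR-WRI3 lines had the most uniform direction. Of the members tested, 90 had a fold change above 1 and 3 below, and their median log2 fold change was 0.43 against 0.01 for all genes. Among the 93 members with a median of at least 1 CPM, 60 were higher with Dex in all 4 lines, against 14.5% of all genes at that level, and 0 were lower in all 4. The counts were 3 in GR-LBD16 (10.1% of all genes), 12 in GR-ENAP1 (3.14%) and 14 in GR-CHA19 (15.7%). The 8 Dex and 8 mock libraries overlapped for each of the 93 members, and they did not overlap for 0.0492% of all genes at that level.

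The share of counts on plastid loci in the GR-WRI3 lines was 1.02% to 1.52% in mock, with a median of 1.13%, and 1.06% to 2.42% with Dex, with a median of 1.33%. In lines 10, 17 and 21 both Dex libraries lay above both mock libraries. Line 10 had 1.54% and 1.91% with Dex against 1.13% and 1.18%, line 17 had 1.15% and 1.27% against 1.02% and 1.06%, and line 21 had 1.39% and 1.19% against 1.09% and 1.13%. Line 8 did not separate, with 2.42% and 1.06% with Dex against 1.52% and 1.19%. The same separation was present in GR-ENAP1 lines 2 and 5 and in no line of GR-CHA19 or GR-LBD16.

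**Figure D3:**
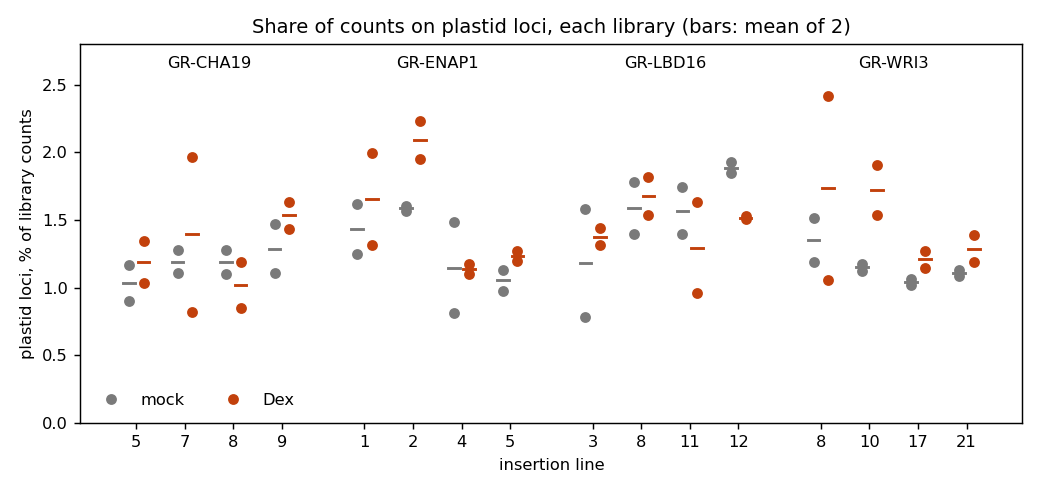
Percent of each library's counts on plastid loci, by GR–TF and insertion line, with 1 point per library, mock in grey and Dex in orange, and the mean of the 2 replicates as a bar. Both Dex libraries lie above both mock libraries in GR-WRI3 lines 10, 17 and 21 and in GR-ENAP1 lines 2 and 5. The 2 Dex libraries of GR-WRI3 line 8 lie far apart at 2.42% and 1.06%.

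Among the 10 highest loci, the fitted changes in the GR-WRI3 lines differed in size. ATCG00800 had 224 to 458 CPM in mock (median 274) and 275 to 1253 CPM with Dex (median 396), with a log2 fold change of 0.76 ± 0.24 (SE) and an adjusted p of 0.301. ATCG00780 had 312 to 569 CPM in mock (median 331) and 323 to 1452 CPM with Dex (median 483), with a log2 fold change of 0.65 ± 0.24 and an adjusted p of 0.301. ATCG00740 had 179 to 361 CPM in mock (median 247) and 157 to 878 CPM with Dex (median 342), with a log2 fold change of 0.60 ± 0.25 and an adjusted p of 0.308. Mock and Dex libraries overlapped for all 3, and all 4 lines had the higher mean with Dex.

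ATCG00790 had 588 to 1035 CPM in mock (median 649) and 567 to 2075 CPM with Dex (median 856), a log2 fold change of 0.49 ± 0.21. For clpP the mock libraries had 386 to 625 CPM (median 433) and the Dex libraries 413 to 990 CPM (median 550), a log2 fold change of 0.37 ± 0.16. ATCG01130 had 1368 to 1928 CPM in mock (median 1556) and 1441 to 3900 CPM with Dex (median 1843), a log2 fold change of 0.34 ± 0.17. Both clpP and ATCG00790 had an adjusted p of 0.311 and ATCG01130 had 0.332. ATCG00270 had 229 to 416 CPM in mock (median 278) and 281 to 405 CPM with Dex (median 378), a log2 fold change of 0.28 ± 0.13 with an adjusted p of 0.319, and again every line had the higher mean with Dex.

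The remaining 3 loci had fitted changes of at most 1 SE. ATCG00480 had a median of 2090 CPM in mock (1622 to 2430) and 2098 CPM with Dex (1781 to 3063), and a log2 fold change of 0.05 ± 0.12. ATCG01020 had a median of 1756 CPM in mock (1531 to 2150) and 1820 CPM with Dex (1555 to 2156), and a log2 fold change of −0.02 ± 0.11. ATCG00470 had a median of 836 CPM in mock (694 to 1114) and 890 CPM with Dex (721 to 1211), and a log2 fold change of 0.10 ± 0.11. For ATCG01020, 2 lines had the higher mean with Dex and 2 the lower. The size of the larger changes depended on 1 library, line 8 Dex replicate 1. Without it the log2 fold change was 0.42 for ATCG00800, 0.31 for ATCG00780, 0.20 for ATCG00740, 0.23 for ATCG00790, 0.20 for clpP and 0.14 for ATCG01130. With all of line 8 left out, the median log2 fold change of the members tested was 0.49, against 0.43 with it.

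The highest fitted fold changes in the GR-WRI3 lines were those of ATCG00100 and ATCG01180. ATCG00100, a locus of low count, had 0.633 to 2.46 CPM in mock (median 1.31) and 1.51 to 8.45 CPM with Dex (median 3.09), and a log2 fold change of 1.14 ± 0.35. ATCG01180 had 6.91 to 33.1 CPM in mock (median 16.3) and 9.004 to 61.6 CPM with Dex (median 29.0), and a log2 fold change of 0.93 ± 0.25. Neither passed, with an adjusted p of 0.301 for both, although all 4 lines had the higher mean with Dex. At the other end, ATCG00560 had a median of 4.503 CPM in mock (2.34 to 6.63) and 4.40 CPM with Dex (3.21 to 5.73), and a log2 fold change of −0.02 ± 0.21.

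This absence of calls depended on the model and on 1 library. The glm.nb model of the study's methods called 53 of the 93 members in GR-WRI3 where it called 28.1% of all genes, DESeq2 called 1 (0.142% of all genes) and edgeR without a filter on low counts called 52 of 109 (6.01%). Without GR-WRI3 line 8 Dex replicate 2, edgeR called 53 of 96 members and 25.4% of all genes, whereas without the other replicate of that pair it called 0 (0.0642% of all genes). In the latter fit 30 members had an unadjusted p under 0.05 (31.2%, against 10.0% of all genes), and the median log2 fold change was 0.26. With all of line 8 left out edgeR called 2 of 92 members (0.0613% of all genes). There 63 members had an unadjusted p under 0.05 (68.5%, against 14.5% of all genes), and the median log2 fold change was 0.49. PORA moved in the same libraries, with 26.9 to 1497 CPM with Dex (median 223) against 31.3 to 459 CPM in mock (median 84.8), and the 2 Dex libraries of line 8 had 1322 and 301 CPM. Its part in the plastid values was not tested.

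In the GR-CHA19 lines the median log2 fold change of the members was −0.11 against 0.02 for all genes, with 35 members above 0 and 58 below. The median turned to 0.04 with line 8 left out and was −0.25 without line 7 Dex replicate 1. The highest fitted fold changes were those of 2 neighbours. ATCG00800 had 187 to 392 CPM in mock (median 277) and 163 to 1327 CPM with Dex (median 433), and a log2 fold change of 0.69 ± 0.33 with an adjusted p of 0.359. ATCG00810 had 103 to 249 CPM in mock (median 170) and 115 to 757 CPM with Dex (median 283), and a log2 fold change of 0.68 ± 0.32 with an adjusted p of 0.358. For each of them 4 of the 8 Dex libraries lay above the highest mock library. Without GR-CHA19 line 7 Dex replicate 1 the log2 fold changes were 0.19 and 0.24. PORA had a median of 51.8 CPM in mock (32.7 to 101) and 337 CPM with Dex (29.3 to 1932) in these lines, and its part in these values was not tested.

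The lowest fitted fold changes in the GR-CHA19 lines were at low counts. ATCG00250 had 0.637 to 2.17 CPM in mock (median 1.37) and 0 to 4.02 CPM with Dex (median 0.684), and ATCG00560 had 2.98 to 8.35 CPM in mock (median 5.06) and 2.14 to 6.55 CPM with Dex (median 3.12). Their log2 fold changes were −0.74 ± 0.38 and −0.70 ± 0.25, with adjusted p of 0.372 and 0.347, and −0.97 and −0.76 without line 7 Dex replicate 1. For both, 3 of 4 lines had the lower mean with Dex. DESeq2 called 0 members and glm.nb 23, where glm.nb called 33.2% of all genes. Leaving out GR-CHA19 line 7 Dex replicate 2, the partner of the library with low LHCB1.1, gave 25 calls among 94 members and 45.1% of all genes, while leaving out that library itself gave 0.

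In the GR-ENAP1 lines 82 of 94 members had a fold change above 1 and the median log2 fold change was 0.20, against −0.015 for all genes. ATCG00410 had 0.205 to 2.53 CPM in mock (median 1.16) and 0.729 to 2.91 CPM with Dex (median 1.97), and a log2 fold change of 0.77 ± 0.40. ATCG00890 had 2.05 to 5.48 CPM in mock (median 3.53) and 1.94 to 8.02 CPM with Dex (median 4.57), and a log2 fold change of 0.58 ± 0.27. At the other end ATCG00180 had a median of 16.1 CPM in mock (5.34 to 66.4) and 16.2 CPM with Dex (7.68 to 43.4), and a fitted log2 fold change of −0.26 ± 0.31 that was 0.18 without GR-ENAP1 line 1 mock replicate 1. ATCG01080 had a median of 17.2 CPM in mock (10.3 to 26.9) and 14.9 CPM with Dex (7.26 to 29.0), and a log2 fold change of −0.17 ± 0.18. The adjusted p of each of these 4 loci was 1. Without that library the other 3 log2 fold changes were 0.66, 0.48 and −0.11, in the order given. DESeq2 called 0 members and glm.nb called 1, where it called 1.19% of all genes.

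In the GR-LBD16 lines the members were balanced, with 55 above 0, 39 below and a median log2 fold change of 0.05 against −0.01 for all genes, which turned to −0.10 without line 3 mock replicate 1. ATCG00210 had 1.33 to 4.39 CPM in mock (median 2.39) and 1.66 to 5.13 CPM with Dex (median 3.33), and ATCG00140 had 5.62 to 60.8 CPM in mock (median 24.9) and 20.8 to 64.3 CPM with Dex (median 38.3). Their log2 fold changes were 0.45 ± 0.31 and 0.44 ± 0.36, or 0.34 and 0.24 without that library, and ATCG00140 had 0.04 with all of line 3 left out. ATCG00410 had 0.761 to 3.04 CPM in mock (median 1.804) and 0.878 to 2.14 CPM with Dex (median 1.08), and a log2 fold change of −0.48 ± 0.28 with the lower mean in all 4 lines. ATCG00250 had 0.482 to 2.66 CPM in mock (median 1.55) and 0 to 2.66 CPM with Dex (median 1.32), and a log2 fold change of −0.51 ± 0.39. Without line 3 mock replicate 1 ATCG00410 had −0.31 and ATCG00250 had −0.68. The adjusted p of these 4 loci lay between 0.621 and 0.642. DESeq2 called 0 members (0.00535% of all genes) and glm.nb 8 (13.7%). Without GR-LBD16 line 3 mock replicate 2 edgeR called 25 of 95 members and 44.5% of all genes, while without replicate 1 of that pair, the library with the lowest LHCB1.1, it called 0.

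**Figure D4:**
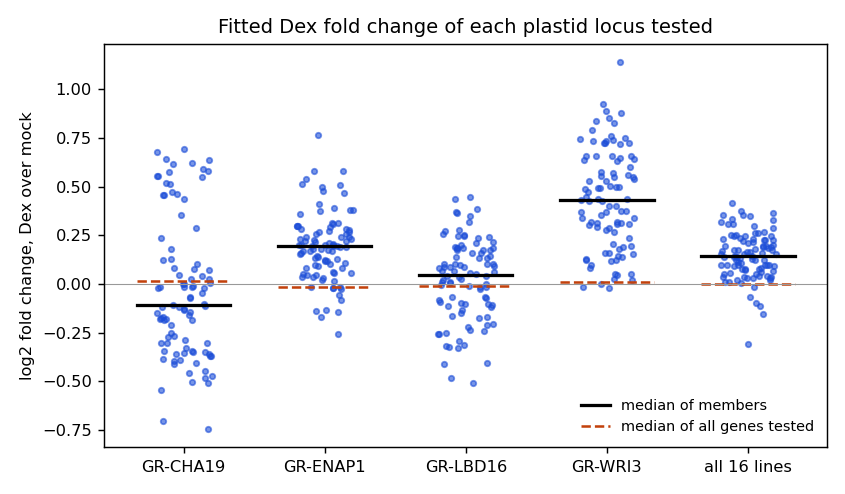
Fitted log2 fold change of Dex over mock for each plastid locus tested in each GR–TF and over all 16 lines, with the median of the members (black bar) and of all genes tested (dashed). The members sit above 0 in GR-WRI3 (90 of 93, median 0.43) and around it in GR-LBD16 (55 of 94 above 0), and none passed the adjusted p of 0.05.

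Over all 16 lines in 1 fit, 0 of 97 members passed, as did 0% of 19541 genes, with edgeR. At an unadjusted p under 0.05 were 13 members (13.4%, against 6.58% of all genes). The members had a median log2 fold change of 0.14 against 0.00 for all genes, with 91 above 0 and 6 below. ATCG00800 had a log2 fold change of 0.35 ± 0.14 (adjusted p of 0.698), clpP of 0.16 ± 0.09 (adjusted p of 0.817) and ATCG00480 of 0.02 ± 0.11 (adjusted p of 1). Whether the Dex effect differed between the 4 GR–TFs was asked with an F-test in the same fit, added after the values were seen. It called 0 of 97 members and 0% of all genes, with 7 members at an unadjusted p under 0.05 (7.22%, against 14.0% of all genes), so the more uniform direction in GR-WRI3 is not shown to differ from the other GR–TFs.

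The 4 insertion lines of a GR–TF differ in where the construct sits. The test of whether the Dex effect differed between lines called 0 members and 0% of all genes in each GR–TF with edgeR, with 8 members at an unadjusted p under 0.05 in GR-CHA19 (8.60%, against 2.31% of all genes), 3 in GR-LBD16 (3.19%, against 2.38%), 1 in GR-WRI3 (1.08%, against 2.65%) and 1 in GR-ENAP1 (1.06%, against 5.12%). DESeq2 called 1 member in GR-CHA19 (0.0109% of all genes) and 0 in the other GR–TFs (0% of all genes). The test of the line means called 0 members too, while it called 4.81% of all genes in GR-WRI3, 0.0321% in GR-LBD16, 0.0378% in GR-ENAP1 and 0.00547% in GR-CHA19. At an unadjusted p under 0.05 were 29 members in GR-ENAP1 (30.9%, against 9.33% of all genes), 11 in GR-WRI3 (11.8%, against 28.3%), 7 in GR-LBD16 (7.45%, against 4.93%) and 7 in GR-CHA19 (7.53%, against 7.56%). DESeq2 called 4 members in GR-WRI3 (13.1% of all genes), 0 in GR-LBD16 (0.524%), 1 in GR-ENAP1 (1.1%) and 1 in GR-CHA19 (0.711%). The plastid share of the GR-ENAP1 lines ran from 1.57% to 2.23% in line 2 and from 0.974% to 1.27% in line 5, without overlap. The counts of called members for these terms changed when 1 replicate of the pairs that stood apart was left out, up to 48 for the line means of GR-LBD16.

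The 4 sets of mock lines differed from each other, and for part of the plastid loci this difference passed the test. Counts of the 2 mock libraries were summed for each line, so that the 4 lines are the replicates of a GR–TF. The F-test between the 4 GR–TFs called 16 of 96 members, where it called 38.4% of 19303 genes. In that test 21 members had an unadjusted p under 0.05 (21.9%, against 49.2% of all genes). By both counts the members lay below the share of all genes. All 16 called members had GR-ENAP1 and GR-LBD16 above GR-CHA19, by 0.44 to 1.18 and 0.57 to 1.13 on the log2 scale, and GR-WRI3 close to GR-CHA19 (−0.21 to 0.18). The median over the 96 members tested was 0.01 for GR-ENAP1, 0.02 for GR-LBD16 and −0.07 for GR-WRI3. The 4 sets differ in construct and possibly in growth or library batch, which the labels do not give, and these cannot be told apart.

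ATCG00800 had the smallest p. Its level in the 4 mock line sums was 515 to 951 CPM in GR-LBD16, 335 to 819 CPM in GR-ENAP1, 239 to 386 CPM in GR-WRI3 and 224 to 330 CPM in GR-CHA19 (adjusted p of 0.00409). The GR-LBD16 lines lay above all GR-CHA19 and GR-WRI3 lines, and the GR-ENAP1 lines overlapped with GR-WRI3. Its neighbours ATCG00820 and ATCG00810 had the same order, with means of 166 ± 38.1 and 411 ± 90.6 CPM (SD, 4 lines) in GR-LBD16, 145 ± 57.3 and 355 ± 145 in GR-ENAP1, 75.4 ± 19.8 and 190 ± 44.1 in GR-WRI3, and 69.7 ± 12.3 and 178 ± 30.8 in GR-CHA19 (adjusted p of 0.00559 and 0.0074).

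ATCG00170 had the largest difference between GR-ENAP1 and GR-CHA19 among the 10 smallest p, 1.18 on the log2 scale. Its mock line sums were 68.4 to 124 CPM in GR-LBD16, 51.4 to 175 CPM in GR-ENAP1, 31.0 to 50.02 CPM in GR-WRI3 and 30.0 to 40.8 CPM in GR-CHA19 (adjusted p of 0.00577). Both higher sets lay above both lower sets in every line. ATCG00040 had 23.8 to 47.0 CPM in GR-LBD16, 24.8 to 33.5 CPM in GR-ENAP1, 14.2 to 19.8 CPM in GR-WRI3 and 10.1 to 19.7 CPM in GR-CHA19 (adjusted p of 0.00542), again without overlap. The other 5 of the 10, ATCG00400, ATCG00650, ATCG00160, ATCG00490 and ATCG00190, differed between GR-LBD16 and GR-CHA19 by 0.84 to 1.06 on the log2 scale, with adjusted p from 0.00564 to 0.0153.

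**Figure D5:**
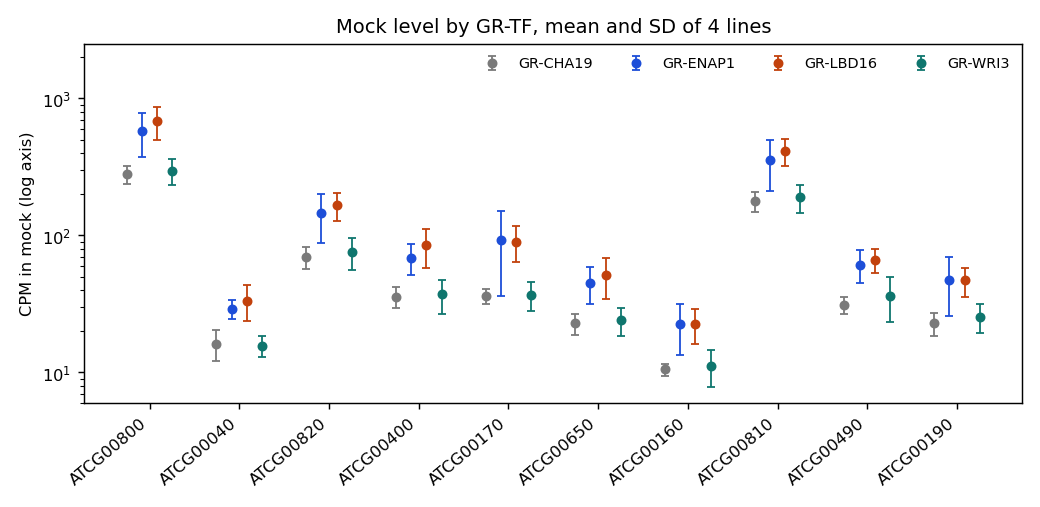
CPM in mock (log axis) of the 10 plastid loci with the smallest p in the test between GR–TFs, as mean and SD of 4 line sums. GR-ENAP1 and GR-LBD16 lie above GR-CHA19 and GR-WRI3 for each locus, with ATCG00800 at means of 580 and 683 CPM against 279 and 297 CPM.

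The difference did not pass the test in the Dex libraries. With the Dex libraries summed in place of the mock ones, the test called 0 of 96 members and 0.0516% of all genes. At an unadjusted p under 0.05 were 12 members (12.5%, against 7.22% of all genes), and none of the 16 was among these 12. Of the 16, 9 still had GR-LBD16 above GR-CHA19, and the log2 difference of ATCG00800 was 0.03. These sums hold GR-CHA19 line 7 Dex replicate 1, and the fit was not repeated without it. The median of ATCG00800 in the Dex libraries was 598 CPM in GR-LBD16 and 433 CPM in GR-CHA19. The test of whether the Dex effect differed between GR–TFs called 0 of 97 members, so a loss of the difference with Dex is not shown. Without the 2 mock libraries with LHCB1.1 under 10 CPM, the test in mock called 25 of 97 members (44.7% of all genes), among them all 16. PORA moved with these loci in mock, with 360 to 1144 CPM in the GR-LBD16 line sums, 163 to 827 CPM in GR-ENAP1, 40.1 to 408 CPM in GR-WRI3 and 44.8 to 96.4 CPM in GR-CHA19 (adjusted p of 0.00584), and its part was not tested. The other markers did not pass, with adjusted p of 0.134 for LHCB1.1, 0.301 for LHCB1.3, 0.533 for LHCB2.1 and 0.0548 for RBCS1A.

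Nuclear genes that serve the plastid genome were counted in the same tests. Of 20 genes for the plastid RNA polymerases and their partners, 14 passed the test between GR–TFs in mock, 13 with GR-LBD16 above GR-CHA19 and 1 below. That test called 38.4% of all genes. The median log2 difference of the 20 was 0.96. PAP4 and PAP12, proteins bound to the plastid-encoded polymerase, had log2 differences of 2.46 and 1.43 (adjusted p of 0.00327 and 0.00208). RPOTP, the phage-type polymerase of plastids, had 1.77 (adjusted p of 0.00632) with mock means of 14.4 ± 2.34 CPM in GR-CHA19 and 56.1 ± 31.2 CPM in GR-LBD16 (SD, 4 lines). Among the sigma factors SIG6 was higher by 0.86 (adjusted p of 0.00309), SIG5 was lower by 0.64 (adjusted p of 0.0433) and SIG2 had 0.41 (adjusted p of 0.0577).

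Of 6 genes for plastid RNA decay and processing, 5 passed, all with GR-LBD16 above GR-CHA19, among them the ribonuclease J gene RNJ with a log2 difference of 1.51 (adjusted p of 0.00496) and PNP, the polynucleotide phosphorylase that adds and removes plastid tails, with 0.66 (adjusted p of 0.0159). Of 22 nuclear genes for complexes that also hold plastid-encoded subunits, 6 passed, 5 above and 1 below. Since the test called 38.4% of all genes, the 6 of 22 are not above that share. RBCS1B, a small subunit of Rubisco, had 2.42 (adjusted p of 0.00252). Among the nuclear partners of clpP, CLPP4 had 1.03 (adjusted p of 0.00433), CLPR1 was lower by 0.31 (adjusted p of 0.0282) and CLPP5 had 0.19 (adjusted p of 0.299). Under Dex, 0 genes of the 3 lists passed in any GR–TF, beside 0.0273% of all genes in GR-WRI3 and 0% in the other GR–TFs. In GR-WRI3 the median log2 fold changes of the lists were 0.34, 0.38 and 0.14, beside 0.43 for the plastid members, and in GR-LBD16 they were −0.42, −0.25 and −0.06, beside 0.05.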

How the data were processed

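Raw counts per locus of 64 libraries were analysed. Per the labels and the study's methods, the authors captured mRNA with oligo-dT, made libraries that do not keep strand, sequenced them in 2 runs of 100-base reads, trimmed adapters and poly-A with Trim Galore (0.6.0) after FastQC (0.11.7), aligned to TAIR10 with STAR (2.7.0f) and deposited counts with no normalization. The 2 runs of each library were summed (128 columns in 4 tables). Members are ATCG loci with at least 50 counts in all. CPM used the library total. The members and the gene lists were chosen with earlier results of these data known.

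Tests used edgeR 4.0.16 (quasi-likelihood, TMM factors, filterByExpr) in R 4.3.3, with Benjamini-Hochberg adjustment over all genes tested and a threshold of 0.05. Each GR–TF was fitted alone on its 16 libraries with 1 mean per line and treatment, as in the study's model of treatment, line and interaction. A fit of all 64 libraries had 32 means. Fold changes are on the log2 scale, and their SE comes from the quasi-likelihood F. Alternatives were RLE factors, library totals, nuclear genes only, no filter, DESeq2 1.42.0, the study's glm.nb, an additive design, a replicate block and each library or line left out. The fits were tested on simulated data.

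Named members are the 10 highest by median CPM, up to 10 called in each test, and the 2 largest rises and falls in each GR–TF among those with a mean of at least 1 CPM (29 loci in all). Members named in that rule by gene symbol other than clpP could not be matched and are left out. Names and sequences come from RefSeq TAIR10.1. Replicates were separate plates of 1 line, and differed by more than sampling noise (chi-square per degree of freedom of at least 1.53), so none were merged. Depth limits loci under 1 CPM, which have few counts per library.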

Additional observations from a re-analysis of the deposited data

Results flagged for a closer look

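A few values stood out because the highest or lowest of the 8 libraries of a GR–TF and treatment lay far from the others by Dixon's criterion. Over 88 groups looked at, 14 values in 6 libraries met it, where chance gives about 1 in 20, or 4.4. The causes were not tested.

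GR-LBD16 line 3 mock replicate 1 was the lowest of its group for the members together at 7818 CPM, with the next library at 13940 CPM, for ATCG01020 at 323.1 CPM (next 1582) and for ATCG00470 at 147.4 CPM (next 998.6). GR-WRI3 line 8 mock replicate 1 was the highest of its group for the members together at 15150 CPM (next 11860), for ATCG00790 at 1035 CPM (next 755.6), for clpP at 625.0 CPM (next 480.1), for ATCG00780 at 569.0 CPM (next 432.0) and for ATCG00800 at 458.1 CPM (next 316.2).

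ATCG01130 was far above the rest of its group in 3 libraries, GR-CHA19 line 7 Dex replicate 1 at 4256 CPM (next 1839), GR-ENAP1 line 1 mock replicate 1 at 4459 CPM (next 2167) and GR-LBD16 line 12 mock replicate 2 at 4303 CPM (next 2906). GR-CHA19 line 9 mock replicate 2 was the highest of its group for ATCG00790 at 1036 CPM (next 700.3), for clpP at 762.0 CPM (next 500.8) and for ATCG00780 at 632.2 CPM (next 361.2).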

How the results depend on the processing

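For the Dex effect, glm.nb called 53 members in GR-WRI3, 8 in GR-LBD16, 1 in GR-ENAP1 and 23 in GR-CHA19 where edgeR called 0. In GR-WRI3 DESeq2 called 1 and edgeR without a filter 52. With libraries or lines left out in turn, the count ran from 0 to 25 in GR-CHA19 (25 without line 7 Dex replicate 2), from 0 to 25 in GR-LBD16 (25 without line 3 mock replicate 2) and from 0 to 53 in GR-WRI3 (53 without line 8 Dex replicate 2), where the median log2 fold change ran from 0.26 to 0.547. That median ran from −0.252 to 0.044 in GR-CHA19, from −0.096 to 0.272 in GR-LBD16 and from 0.075 to 0.336 in GR-ENAP1. For the line by treatment term DESeq2 called 1 in GR-CHA19 and edgeR without a filter 3 in GR-WRI3, and with libraries left out the counts ran from 0 to 34 in GR-LBD16, 0 to 19 in GR-ENAP1 and 0 to 18 in GR-CHA19. For the line means DESeq2 called 4 in GR-WRI3, 1 in GR-ENAP1 and 1 in GR-CHA19, edgeR without a filter called 36 in GR-WRI3, and with libraries left out the counts ran from 0 to 39 in GR-WRI3, 0 to 48 in GR-LBD16, 0 to 39 in GR-ENAP1 and 0 to 28 in GR-CHA19. The highest of these counts came without GR-CHA19 line 7 Dex replicate 2, GR-ENAP1 line 1 mock replicate 2, GR-LBD16 line 3 mock replicate 2 and GR-WRI3 line 8 Dex replicate 2. The causes were not tested.

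For the difference between GR–TFs, the 16 calls became 0 with Dex line sums in place of mock and 25 without the 2 mock libraries low in LHCB1.1, an alternative chosen after seeing the data. With Dex line sums the log2 difference of GR-LBD16 from GR-CHA19 was −0.15 for ATCG00040, −0.33 for ATCG00170, −0.21 for ATCG00160 and −0.26 for ATCG00190, the reverse of mock. Among the larger fitted Dex changes, ATCG00800 ran from 0.19 to 0.88 and ATCG00810 from 0.24 to 0.86 in GR-CHA19, ATCG00140 from 0.04 to 0.77 and ATCG00210 from 0.21 to 0.60 in GR-LBD16, and ATCG00740 from 0.20 to 0.79, ATCG00780 from 0.31 to 0.82, ATCG00790 from 0.23 to 0.64 and ATCG01130 from 0.14 to 0.47 in GR-WRI3. Small fitted changes also turned. With the library total alone ATCG00560 had 0.01 and ATCG01020 0.02 in GR-WRI3. With libraries or lines left out ATCG00560 ran from −0.16 to 0.17, ATCG01020 from −0.07 to 0.05 and ATCG00480 from −0.03 to 0.12 in GR-WRI3, ATCG00180 from −0.45 to 0.18 in GR-ENAP1 and ATCG00250 from −1.36 to 0.22 in GR-LBD16.

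Of the other values of the comparisons, 484 kept their side of the threshold and direction. Replicates shared a number, and same-numbered libraries of a line deviated together with r over 0.1 in 3 of 16 lines (−0.285 to 0.371). With 2 replicates per line and treatment this cannot exclude a pairing. With the replicate block 0 members were called for Dex, line by treatment and line means in each GR–TF. Leaving out each library in the fit of all 64 libraries was not run. Loci under 1 CPM have few counts per library, and changes smaller than the spread between plates were not detectable.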
